A study of Mus musculus with 26 samples.

Results

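The ion channel genes described here encode the pore subunits of voltage-gated sodium and calcium channels, the alpha2delta calcium channel subunits, the HCN pacemaker channels and the potassium channels with their partners. They were chosen by symbol alone, as every measured gene whose symbol is Scn followed by a number and a final a, or begins with Cacna1, Cacna2d, Hcn or Kcn. This gave 119 of the 23156 genes present in either expression table, of which 117 of 19938 were measured on arrays of version 1.0, 115 of 22180 on arrays of version 2.0, and 113 on both. Kcnj13, Kcnk3, Kcnmb4os1 and Kcnmb4os2 had probes annotated to them alone on version 1.0 only, and Kcnh6 and Kcnq1ot1 on version 2.0 only. On version 2.0, the probes of Kcnj13, Kcnk3 and Kcnmb4os1 were annotated together with another gene and were not used. Gene expression was profiled on Affymetrix mouse gene arrays in 26 samples, with 5 Rb/p53-mutated pineoblastomas (PB), 11 Rb/p53-deleted PBs and 3 normal cerebella on version 1.0, and 3 Rb/Dicer1/p53-deleted PBs, 3 Dicer1/p53-deleted PBs and the remaining Rb/p53-deleted PB (PB12) on version 2.0.

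Pineoblastoma is a malignant tumor of the pineal gland, the melatonin-secreting gland of the brain, whose cells share a developmental program with retinal photoreceptors. All tumors arose in mice carrying the WAP-Cre transgene, whose promoter was made for the mammary gland and was also active in the pineal gland, on a mixed genetic background, and all carried an alteration of the p53 gene. Rb/p53-mutated PBs were Rb flox/flox with 1 p53 allele of lox-stop-lox R270H and 1 floxed p53 allele, Rb/p53-deleted PBs were Rb flox/flox p53 flox/flox, Rb/Dicer1/p53-deleted PBs were floxed at all 3 genes, and Dicer1/p53-deleted PBs were Dicer1 flox/flox p53 flox/flox. The age at collection was not given per sample. Normal cerebellum was the only normal tissue and served as the reference, and normal pineal gland was not analysed here. Each array measured bulk RNA of a tumor or tissue piece, in which fewer cells of a type and less RNA per cell cannot be told apart.

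Voltage-gated sodium channels carry the upstroke of the action potential, potassium channels repolarize the cell and set its resting potential, and calcium channels couple voltage to transmitter release and gene expression. Cerebellar granule neurons and Purkinje cells, the latter firing fast and tonically, are known for P/Q-type calcium channels and for Shaker, Shaw and Shal potassium channels. Photoreceptors use graded potentials instead. They sustain transmitter release in darkness with a slowly inactivating L-type calcium channel built from Cacna1f and Cacna2d4. They also modify their inner-segment potassium current with the silent subunit encoded by Kcnv2.

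Because photoreceptor and pineal genes share the homeobox factor Crx, whose known core sites are TAATCC and the related TAATCT, promoters were searched for both, on either strand (GGATTA and AGATTA on the other one). The pair differ in the last base and cannot both match at the same position. RefSeq sequence of the mouse build GRCm38.p6, 250 bases before to 50 bases after the annotated start, was found for 91 of the 119 channel genes with 121 promoters. None was available for Cacna2d4, Kcnv2, Kcnj14, Kcnb2 or Cacna1a, among others, so these genes were not searched. TAATCC was in 4.96% of the channel promoters and in 7.06% of all 32851 promoters, and TAATCT in 11.6% and 8.19%. These are matches of letters only. The promoters of 3 genes are shown with a match in capitals. Cacna1f (chrX:7606853-7607152, + strand) was the channel gene with the largest increase in the tumors and has TAATCT starting at −26 from the start site. Cacna1s (chr1:136052561-136052860, + strand) was also higher in the tumors and has TAATCC at −54. Kcnd2 (chr6:21215096-21215395, + strand) had the largest decrease by the probes used for each gene, and neither match in this window. Matches were not tied to a direction. Cacna2d1, Kcnj2 and Cacna1h, also higher in both Rb/p53-altered groups, were not among the genes with a match. TAATCC was also present for Kcnj9 and Kcng4, and TAATCT for Scn2a, Kcnip1, Kcnj16, Kcnj6 and Kcna6, all of which were lower in both Rb/p53-altered groups.
Cacna1f: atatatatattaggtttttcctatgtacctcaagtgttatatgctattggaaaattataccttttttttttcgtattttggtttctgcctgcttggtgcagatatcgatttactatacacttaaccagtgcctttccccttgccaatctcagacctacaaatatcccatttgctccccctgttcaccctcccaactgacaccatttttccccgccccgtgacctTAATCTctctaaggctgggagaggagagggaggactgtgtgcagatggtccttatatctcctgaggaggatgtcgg
Cacna1s: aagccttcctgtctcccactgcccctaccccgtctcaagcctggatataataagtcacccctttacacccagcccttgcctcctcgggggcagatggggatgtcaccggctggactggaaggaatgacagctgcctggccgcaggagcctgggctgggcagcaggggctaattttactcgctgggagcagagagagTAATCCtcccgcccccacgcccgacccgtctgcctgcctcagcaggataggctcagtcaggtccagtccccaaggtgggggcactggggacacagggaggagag
Kcnd2: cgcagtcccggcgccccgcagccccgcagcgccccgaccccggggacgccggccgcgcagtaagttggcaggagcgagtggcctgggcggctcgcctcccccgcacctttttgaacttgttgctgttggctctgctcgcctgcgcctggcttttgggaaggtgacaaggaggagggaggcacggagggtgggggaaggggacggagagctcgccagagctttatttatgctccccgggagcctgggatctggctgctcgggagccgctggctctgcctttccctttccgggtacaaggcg

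Values are log2 array signals after quantile normalization within each table, 1 transcript cluster (the probes of a transcript) per gene, so a difference of 1 is a 2-fold change, and no gene's level is set against another gene's. Calls are at a limma adjusted p below 0.01 against cerebellum and below 0.05 between tumors. Before this normalization, the median over all genes was 7.04 to 7.12 on the Rb/p53-mutated arrays, 7.9 to 8.0 on the Rb/p53-deleted arrays and 7.95 to 8.01 on the cerebellum arrays. The spread of values on the PB11 array was that of the cerebellum arrays rather than that of PB1 to PB10 (interquartile range 3.24 in PB11 and 2.57 to 2.87 in PB1 to PB10, against 3.17 to 3.25 in cerebellum). PB11 was the lowest or the highest Rb/p53-deleted PB for 43 of the 117 channel genes. The floxed genes gave only a limited check of the deletions, since the probes span whole transcripts and the floxed segments only some exons. Rb1 read 9.90 to 10.4 in Rb/p53-mutated PBs and 9.64 to 10.6 in Rb/p53-deleted PBs, against 10.03 ± 0.05 (SD, n = 3) in cerebellum. On version 2.0, Rb1 read 8.27 to 8.79 in Rb/Dicer1/p53-deleted PBs, against 9.50 to 9.95 in Dicer1/p53-deleted PBs, without overlap (−1.17, limma adjusted p = 0.388), and 9.08 in PB12. Dicer1 read 7.76 to 8.28 in Rb/Dicer1/p53-deleted PBs and 7.77 to 8.05 in Dicer1/p53-deleted PBs. The photoreceptor and pineal identity genes had a mean level of 10.2 to 11.2 in Rb/p53-mutated PBs and 10.2 to 10.9 in Rb/p53-deleted PBs, against 6.67 to 7.06 in cerebellum, with 6 and 7 of the 9 genes called higher. Crx itself was higher by 5.69 in Rb/p53-mutated PBs (limma adjusted p = 1.20e-09) and by 5.45 in Rb/p53-deleted PBs (limma adjusted p = 1.90e-17).

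Against normal cerebellum, the channel genes fell far more often than they rose. In Rb/p53-mutated PBs, 13 of 117 were higher, 59 were lower and 45 were not called, beside 23.8% higher and 27.5% lower among all genes tested. In Rb/p53-deleted PBs, 11 were higher, 61 were lower and 45 were not called, beside 25.0% and 27.7% among all genes. The median difference of the channel genes was −0.45 in Rb/p53-mutated PBs and −0.34 in Rb/p53-deleted PBs, against −0.02 and 0.01 over all genes. Both comparisons used the same 3 cerebella, so they are not independent of each other. With the deposited values, on which the median of all genes was −0.92 in Rb/p53-mutated PBs relative to cerebellum, 3 channel genes were higher and 96 lower in that group. With each array centred on its median instead, 24 were higher and 53 lower.

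By family, the falls were spread unevenly. All 3 P/Q-, N- and R-type calcium channel genes were lower in both tumor groups. Of the 15 inward rectifier genes, 10 were lower in Rb/p53-mutated PBs and 11 in Rb/p53-deleted PBs, with Kcnj2 the exception that was higher in both. Of the 14 Kcnk leak potassium channel genes, 8 and 7 were lower and none was higher. Among the 15 Shaker, Shab, Shaw and Shal genes (Kcna to Kcnd), 8 were lower and 2 higher in Rb/p53-mutated PBs, and 9 lower and 1 higher in Rb/p53-deleted PBs. The L-type calcium channel genes went the other way, with 2 of 4 higher (Cacna1f and Cacna1s) and 1 lower (Cacna1d) in each group, and the alpha2delta genes Cacna2d1 and Cacna2d4 were higher in both groups.

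**Figure D1:**
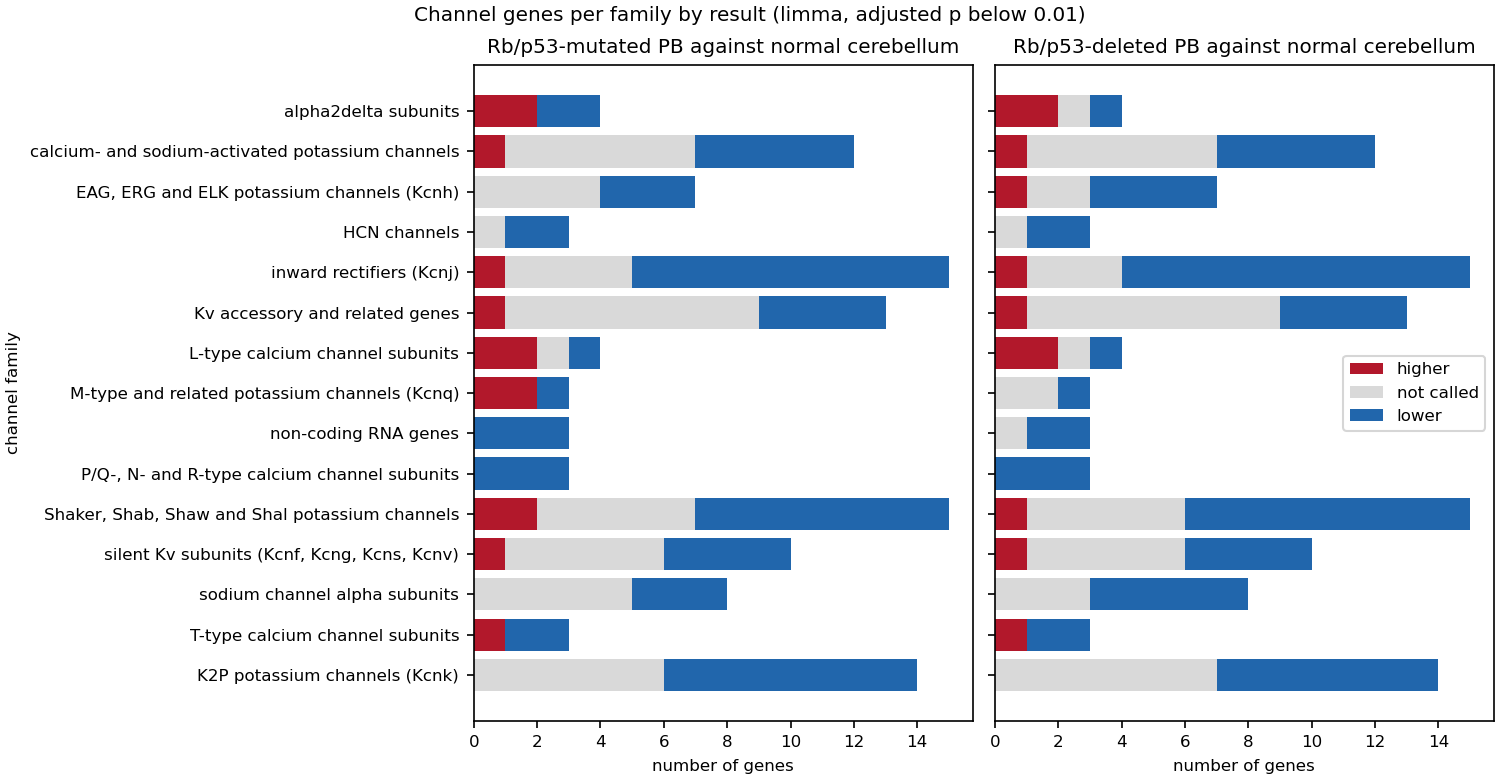
Number of channel genes higher, not called and lower against normal cerebellum (x axis, genes) in each channel family (y axis), in Rb/p53-mutated PBs (left) and Rb/p53-deleted PBs (right), limma adjusted p below 0.01. No member of the Kcnk, HCN or P/Q-, N- and R-type families was higher in either tumor group.

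The other families were mixed. Of 8 sodium channel genes, 3 were lower in Rb/p53-mutated PBs and 5 in Rb/p53-deleted PBs, and none was higher. Of 12 calcium- and sodium-activated potassium channel genes, 5 were lower and 1 higher in each group. Of 7 Kcnh genes, 3 were lower in Rb/p53-mutated PBs, and 4 were lower and 1 higher in Rb/p53-deleted PBs. Of 13 accessory and related genes (Kcnab, Kcne, Kcnip and Kcnrg) 4 were lower and 1 higher in each group, and the same counts held for the 10 silent subunits. Of 3 T-type calcium channel genes 2 were lower and 1 higher in each group, and of 3 HCN genes 2 were lower in each. All 3 non-coding RNA genes were lower in Rb/p53-mutated PBs and 2 of them in Rb/p53-deleted PBs. Of 3 Kcnq genes, Rb/p53-mutated PBs had 2 higher and 1 lower, and Rb/p53-deleted PBs had 1 lower. The genes not called differed by −0.55 to 1.71 in Rb/p53-mutated PBs and by −1.07 to 0.88 in Rb/p53-deleted PBs.

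The photoreceptor and pineal channels measured were Cacna1f, Cacna2d4, Kcnv2, Kcnj14, Cacna1c and Cacna1d. Of these 6, 3 were higher and 1 was lower in each tumor group, with a median difference of 0.74 in Rb/p53-mutated PBs and 1.12 in Rb/p53-deleted PBs. Over the whole table, calls upward made up 23.8% in Rb/p53-mutated PBs and 25.0% in Rb/p53-deleted PBs. Calls downward made up 27.5% and 27.7%. The list of 6 was not tested against these shares. Cacna1f, the pore subunit of the photoreceptor synaptic calcium channel, read 10.59, 10.58, 10.09, 10.61 and 11.06 in Rb/p53-mutated PBs and 9.90 (lowest), 10.41 (median) and 10.93 (highest) in Rb/p53-deleted PBs, against 6.53, 6.39 and 6.46 in cerebellum. Every tumor was above every cerebellum by more than 3 log2 units, and the differences were 4.13 ± 0.18 (SE, limma adjusted p = 6.18e-08) and 3.92 ± 0.15 (limma adjusted p = 1.46e-12). Its alpha2delta partner Cacna2d4, which the same channel needs at the photoreceptor synapse, read 9.60, 9.78, 9.22, 9.99 and 10.24 in Rb/p53-mutated PBs and 8.30, 9.21 and 10.15 (lowest, median and highest) in Rb/p53-deleted PBs, against 7.37, 7.26 and 7.46 in cerebellum. All tumors were again above all cerebella, by 2.41 ± 0.20 (limma adjusted p = 5.55e-06) and 1.84 ± 0.26 (limma adjusted p = 1.17e-05).

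Kcnv2, which forms no channel alone and modifies Kcnb partners in photoreceptors, read 7.68, 7.97, 7.44, 8.35 and 8.75 in Rb/p53-mutated PBs and 8.25, 8.63 and 9.31 (lowest, median and highest) in Rb/p53-deleted PBs, against 6.83, 6.85 and 6.79 in cerebellum. The groups of tumors and cerebella did not overlap, with differences of 1.21 ± 0.26 (limma adjusted p = 0.00266) and 1.88 ± 0.17 (limma adjusted p = 6.01e-08). The call in Rb/p53-mutated PBs was lost when any 1 cerebellum was left out (limma adjusted p = 0.0108 to 0.0125), and on the deposited values its difference was 0.37. In Rb/p53-deleted PBs, the lowest value of Cacna1f, of Cacna2d4 and of Kcnv2 was that of PB11. With PB11 and the cerebella fitted as 1 array set and PB1 to PB10 as the other, the difference is that of PB11 alone from the cerebella. For Cacna2d4 it was 0.94. These sets were inferred from the spread of the arrays, and no label names them.

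The other members of this list did not follow. Cacna1d, a low-threshold L-type pore known from cochlear hair cells and neurons, read 7.42, 7.99 and 9.0 (lowest, median and highest) in Rb/p53-deleted PBs, against 9.18, 9.26 and 9.20 in cerebellum. It was lower in both groups, by −1.70 ± 0.14 in Rb/p53-mutated PBs (limma adjusted p = 4.51e-06) and −1.20 ± 0.22 in Rb/p53-deleted PBs (limma adjusted p = 1.82e-04). The call in Rb/p53-deleted PBs was lost with the replicate number as a block (−1.03, limma adjusted p = 0.0229). PB11 alone also differed from the cerebella by −1.03. Cacna1c, the L-type pore of heart and brain, differed by 0.26 and 0.40, and Kcnj14, an inward rectifier, by −0.12 and −0.03 in the Rb/p53-mutated and the Rb/p53-deleted PBs, none of which passed the threshold. The sign of the Kcnj14 difference changed with the scaling. On the deposited values both genes were called lower in Rb/p53-mutated PBs, Cacna1c by −0.94 (limma adjusted p = 0.00690) and Kcnj14 by −0.88 (limma adjusted p = 4.98e-04).

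**Figure D2:**
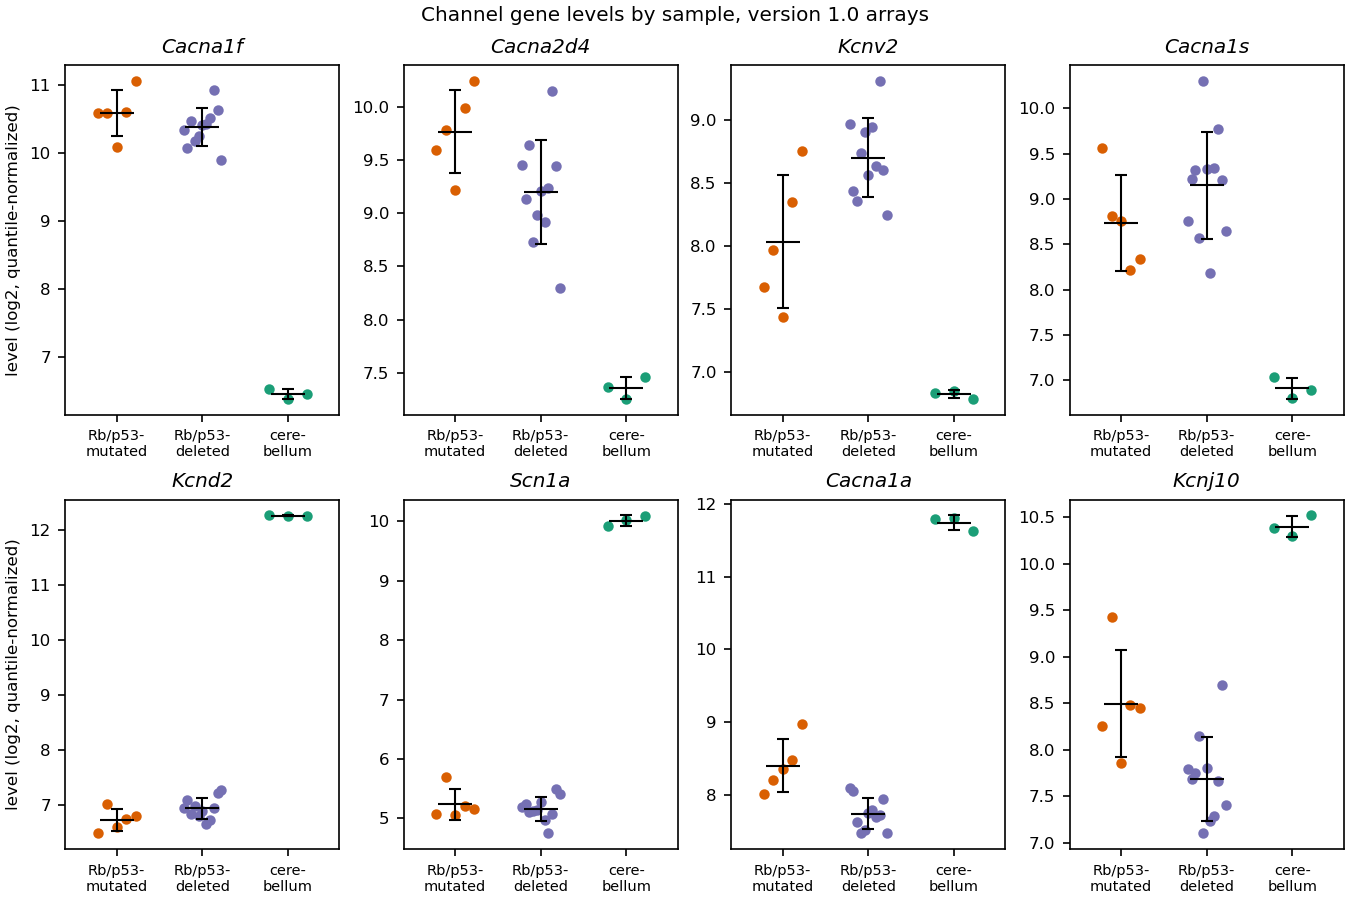
Quantile-normalized log2 signal (y axis) of 8 channel genes in Rb/p53-mutated PBs (n = 5), Rb/p53-deleted PBs (n = 11) and normal cerebella (n = 3), with 1 point per sample and the mean ± SD as a bar, arrays of version 1.0. Every tumor is above every cerebellum for Cacna1f, Cacna2d4, Kcnv2 and Cacna1s, and below every cerebellum for Kcnd2, Scn1a, Cacna1a and Kcnj10.

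The 23 cerebellar neuron channels that were measured fell almost without exception. The list names channels known from the reference tissue itself and was chosen with earlier results of these data known. Falls from cerebellum on this list are therefore not an independent test. Among all genes, 27.5% were lower in Rb/p53-mutated PBs and 27.7% in Rb/p53-deleted PBs. In each tumor group 22 of the 23 were lower, with a median difference of −2.75 in Rb/p53-mutated PBs and −2.78 in Rb/p53-deleted PBs. Their mean level was 7.61 to 7.97 in Rb/p53-mutated PBs and 7.66 to 7.90 in Rb/p53-deleted PBs, against 10.63 to 10.65 in cerebellum. The markers of the cells that carry these channels in the cerebellum moved with them. The 5 granule neuron markers and the 4 Purkinje cell markers measured were all called lower in both groups, with mean levels of granule markers of 8.77 to 9.39 in Rb/p53-mutated PBs and 8.98 to 9.89 in Rb/p53-deleted PBs, against 13.1 to 13.2 in cerebellum. Purkinje markers averaged 6.21 to 6.65 and 6.41 to 7.79, against 12.4 in cerebellum. The part of cell composition in the channel differences was not tested.

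Among the transcript clusters used, Kcnd2, the Shal potassium channel of the granule cell dendrite, showed the largest fall. It read 6.49, 7.02, 6.61, 6.74 and 6.80 in Rb/p53-mutated PBs and 6.66, 6.94 and 7.27 (lowest, median and highest) in Rb/p53-deleted PBs, against 12.27 in each of the 3 cerebella. The differences were −5.54 ± 0.12 (limma adjusted p = 1.72e-09) and −5.33 ± 0.11 (limma adjusted p = 1.46e-15). Kcnip4, a cytoplasmic calcium-binding subunit of Shal channels, differed by −4.68 ± 0.45 and −4.81 ± 0.27, and the related Kcnip1 by −4.45 and −4.39, all called.

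Kcnd3, the other Shal channel on the list, was the exception. It read 10.27, 11.12 and 11.84 (lowest, median and highest) in Rb/p53-deleted PBs, against 10.10, 10.16 and 10.27 in cerebellum, and the difference of 0.76 ± 0.28 was not called (limma adjusted p = 0.0263). In Rb/p53-mutated PBs it was called higher by 0.82 ± 0.19 (limma adjusted p = 0.00382), a call that was lost without any 1 of the cerebella (limma adjusted p = 0.0119 to 0.0191). Its sign turned on the deposited values (−0.37).

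Scn1a, Scn2a and Scn8a, sodium channel pores that drive spiking in central neurons, were lower in every tumor than in every cerebellum. Scn1a, the sodium channel of fast-spiking neurons, read 5.07, 5.69, 5.06, 5.21 and 5.15 in Rb/p53-mutated PBs and 4.75, 5.14 and 5.50 (lowest, median and highest) in Rb/p53-deleted PBs, against 9.92, 10.02 and 10.10 in cerebellum. The differences were −4.78 ± 0.14 (limma adjusted p = 7.86e-09) and −4.85 ± 0.12 (limma adjusted p = 6.29e-15). Scn2a, the channel of unmyelinated axons such as parallel fibers, differed by −3.49 and −3.85. The cluster used had the smallest fall of its 14 transcript clusters. The other clusters differed by −4.29 to −6.48 in Rb/p53-mutated PBs and by −4.52 to −6.39 in Rb/p53-deleted PBs. Some of these falls were larger than that of Kcnd2. Scn8a, the main pore of the axon initial segment and nodes, differed by −1.88 and −1.96.

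Cacna1a, the pore of the P/Q-type channel of cerebellar synapses, read 8.0, 8.20, 8.35, 8.48 and 8.97 in Rb/p53-mutated PBs and 7.47, 7.72 and 8.08 (lowest, median and highest) in Rb/p53-deleted PBs, against 11.80, 11.81 and 11.63 in cerebellum. No tumor came within 2 log2 units of a cerebellum. The difference was −3.35 ± 0.19 in Rb/p53-mutated PBs (limma adjusted p = 3.87e-07) and −4.01 ± 0.12 in Rb/p53-deleted PBs (limma adjusted p = 9.03e-14). Its alpha2delta partner in Purkinje cells, Cacna2d2, differed by −1.84 and −2.09, and the T-type pore Cacna1g, which supports burst firing, by −2.51 and −2.63.

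Among the potassium channels of the list, the leak channel Kcnk1 differed by −4.66 and −4.76 and the tonic granule cell leak channel Kcnk9 by −2.75 and −2.78 in the Rb/p53-mutated and the Rb/p53-deleted PBs. The Shaker channels Kcna1 and Kcna2 of basket cell terminals and axons differed by −3.52 and −2.91 in Rb/p53-mutated PBs, and by −3.54 and −3.41 in Rb/p53-deleted PBs. The G protein-gated rectifiers Kcnj3, Kcnj9 and Kcnj6, which form the channels opened by inhibitory receptors, differed by −3.99, −3.45 and −1.28 in Rb/p53-mutated PBs, and by −3.83, −3.13 and −1.67 in Rb/p53-deleted PBs. Kcnc1, the Shaw channel that shortens spikes in fast-firing cells, differed by −2.20 and −2.92. All of these were called.

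In Rb/p53-deleted PBs the smallest falls on the list were those of Hcn2, a pacemaker channel, and Kcnma1, the large-conductance calcium-activated channel. Hcn2 differed by −1.54 in Rb/p53-mutated PBs and −1.23 in Rb/p53-deleted PBs. Kcnma1 read 7.92, 9.38 and 10.18 (lowest, median and highest) in Rb/p53-deleted PBs, with PB11 highest, and differed by −1.87 and −1.54 from cerebellum. PB11 alone differed from the cerebella by −0.47. A second, dimmer transcript cluster of Kcnma1 differed by 0.09 and 0.23, so its call rests on the cluster used.

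**Figure D3:**
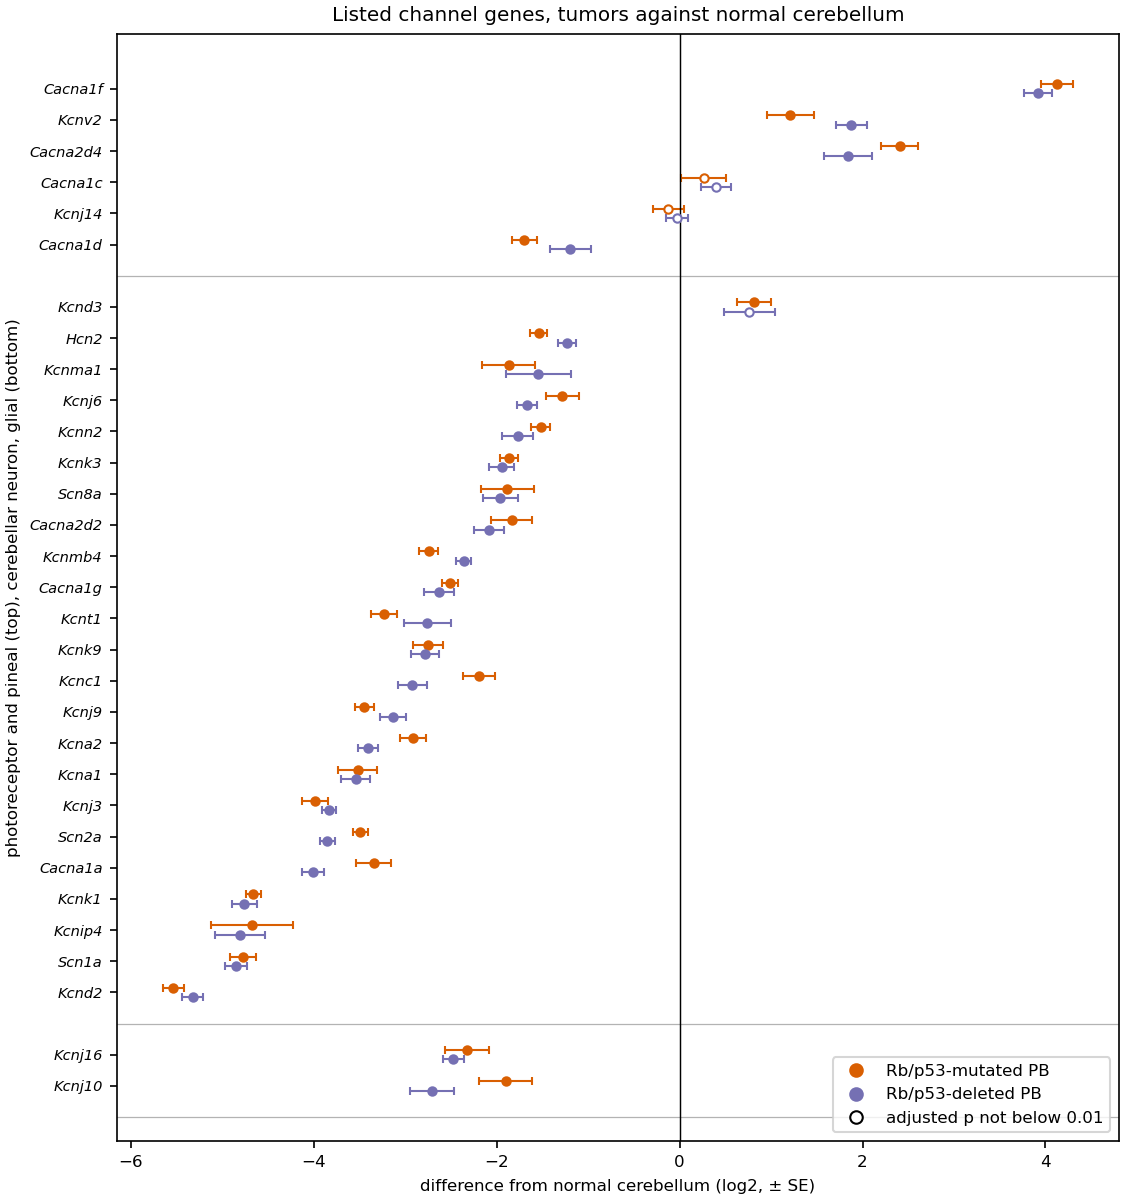
Difference from normal cerebellum in log2 units (x axis, ± SE) of the photoreceptor and pineal, glial and cerebellar neuron channels measured on version 1.0 (y axis), in the Rb/p53-mutated and the Rb/p53-deleted PBs. Open points did not pass a limma adjusted p of 0.01. All cerebellar channels but Kcnd3 lie left of 0.

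Genes without a place on the cerebellar list fell as well. Kcnk10, a mechanically gated leak channel, read 6.90, 6.64, 6.87, 6.74 and 6.72 in Rb/p53-mutated PBs and 6.96, 7.04 and 7.21 (lowest, median and highest) in Rb/p53-deleted PBs, against 10.69, 10.73 and 10.77 in cerebellum. The values within each group were tight, and the differences were −3.96 ± 0.08 (limma adjusted p = 1.72e-09) and −3.67 ± 0.06 (limma adjusted p = 2.60e-16). The glial rectifiers, which clear potassium in astrocytes and oligodendrocytes, were both lower in both groups. Kcnj10 read 8.26, 9.43, 7.86, 8.49 and 8.45 in Rb/p53-mutated PBs and 7.11, 7.69 and 8.70 (lowest, median and highest) in Rb/p53-deleted PBs, against 10.39, 10.29 and 10.52 in cerebellum. The differences were −1.90 ± 0.29 (limma adjusted p = 3.11e-04) and −2.71 ± 0.24 (limma adjusted p = 5.29e-08), and those of its partner Kcnj16 were −2.32 and −2.48.

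Glial markers moved with the glial channels. Of 6 astrocyte markers, 4 were lower and 1 higher in Rb/p53-mutated PBs, and 5 were lower and 1 higher in Rb/p53-deleted PBs, with mean levels of 8.15 to 8.83 and 7.80 to 8.76, against 10.91 to 11.05 in cerebellum. All 5 oligodendrocyte markers were lower in both groups, with mean levels of 7.33 to 8.0 and 7.68 to 8.21, against 10.69 to 10.99 in cerebellum. Rb/p53-mutated PB2 had the highest Kcnj10, Kcnj16, glial channel mean (8.46) and astrocyte marker mean (8.83) of its group. Microglial and endothelial markers were mixed. Of 5 microglial markers, Rb/p53-mutated PBs had 3 higher and 1 lower, and Rb/p53-deleted PBs had 2 higher and 1 lower. Of 5 endothelial markers, 1 and 2 were lower. The part of these cells in the glial channel levels was not tested.

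**Figure D4:**
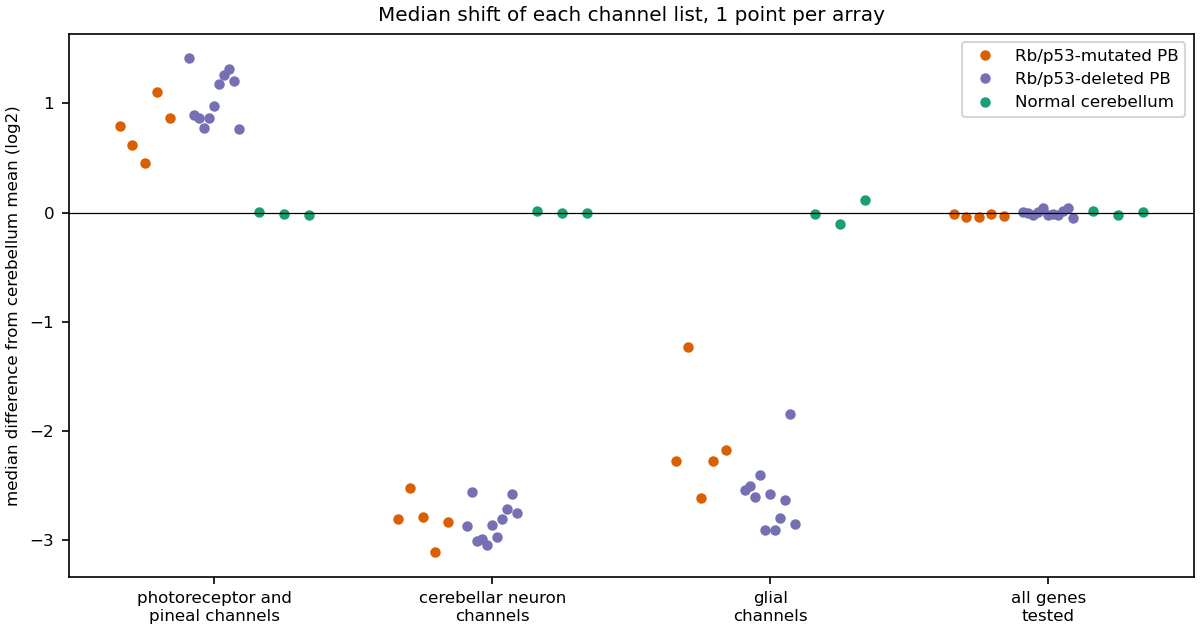
Median shift of each channel list from the cerebellum mean in log2 units (y axis) on every array of version 1.0 (x axis, Rb/p53-mutated PBs, Rb/p53-deleted PBs, then normal cerebella), with the median of all genes. On every tumor array the photoreceptor and pineal channels were above 0 (0.45 to 1.41), the cerebellar channels below it (−3.11 to −2.52) and the glial channels below it (−2.90 to −1.23), while all genes stayed between −0.05 and 0.04.

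Beyond the photoreceptor list, few channels rose. Cacna1s, the L-type pore best known as the voltage sensor of skeletal muscle, was 1 of the 7 channels of muscle, heart, sensory neurons, kidney and sperm that were measured and the only one of them called. It read 9.56, 8.81, 8.76, 8.22 and 8.33 in Rb/p53-mutated PBs and 8.19, 9.22 and 10.30 (lowest, median and highest) in Rb/p53-deleted PBs, against 7.04, 6.81 and 6.89 in cerebellum. Every tumor was above every cerebellum, by 1.82 ± 0.26 (limma adjusted p = 2.28e-04) and 2.24 ± 0.31 (limma adjusted p = 1.05e-05) on average. For Cacna1s, PB11 alone differed from the cerebella by 1.73. Scn10a, a sodium channel of pain-sensing neurons, was not called in either group, but ranged from 6.62 to 9.30 in Rb/p53-mutated PBs and from 6.32 to 9.19 in Rb/p53-deleted PBs.

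Kcnj2, a strong inward rectifier that clamps the resting potential, read 7.77, 8.61 and 9.58 (lowest, median and highest) in Rb/p53-deleted PBs, against 6.93, 6.69 and 6.91 in cerebellum. It was higher in both groups, by 1.35 ± 0.18 in Rb/p53-mutated PBs (limma adjusted p = 1.14e-04, but 0.53 and limma adjusted p = 0.0108 on the deposited values) and 1.81 ± 0.27 in Rb/p53-deleted PBs (limma adjusted p = 1.82e-05). Kcnb2, a delayed rectifier of the Shab family with which Kcnv2 can assemble, read 8.57, 8.96 and 9.55 in Rb/p53-deleted PBs, against 7.68, 7.56 and 7.81 in cerebellum. Its differences were 0.86 ± 0.15 and 1.32 ± 0.14, both called. Cacna2d1, the alpha2delta subunit that binds gabapentin, differed by 0.98 and 0.92, and the T-type pore Cacna1h by 0.71 and 0.69, all called. Another transcript cluster of Cacna2d1 differed by only 0.32 in Rb/p53-mutated PBs and by 0.86 in Rb/p53-deleted PBs. On the deposited values the Rb/p53-mutated differences of Cacna2d1 and Kcnb2 were −0.20 and −0.06. For Cacna2d1, PB11 alone differed from the cerebella by 0.45. Other genes were called higher in 1 of the 2 comparisons. In Rb/p53-mutated PBs they were Kcnq5, an M current subunit (0.66), Kcnt2, a sodium-activated channel (0.66), Kcnip2, a Shal subunit (0.54), and Kcnq1, a channel of heart and epithelia (0.27). In Rb/p53-deleted PBs they were Kcnn3, a small-conductance calcium-activated channel (0.77), the accessory subunit Kcne3 (0.62) and Kcnh4, a channel of the ELK type (0.28). The Kcnn3 call was lost on the deposited values (0.54, limma adjusted p = 0.0192), and PB11 alone differed from the cerebella by 0.91. Compared directly, Rb/p53-mutated PBs were higher than Rb/p53-deleted PBs for Kcnt2 (0.70), Kcnq5 (0.57) and Kcnip2 (0.41) and lower for Kcnh4 (−0.37), all called by limma. Kcnq1, Kcne3 and Kcnn3 did not pass that test. On the deposited values no channel gene was called higher in that direct comparison. Against cerebellum, 3 channel genes were called higher in Rb/p53-mutated PBs on those values.

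Genes outside the symbol rule that are named as beta or gamma subunits of sodium or calcium channels were also counted. Of 13 measured, 10 were lower and 1 was higher in Rb/p53-mutated PBs. In Rb/p53-deleted PBs 10 were lower and none was higher. The Cacng genes were counted by name, whether or not their products serve calcium channels. Among them, Cacng1 was not called in Rb/p53-mutated (0.13) or Rb/p53-deleted PBs (0.06). Scn2b, a beta subunit that brings sodium channels to the surface, differed by −5.22 and −4.93, and Cacnb4, the main beta subunit of cerebellar P/Q-type channels, by −4.91 and −4.14. Scn3b was the higher one in Rb/p53-mutated PBs, at 1.41 (limma adjusted p = 9.27e-05). The 6 cyclic nucleotide-gated channel genes include those that carry the light response of photoreceptors. Of these, 2 were higher and none lower in Rb/p53-mutated PBs, and 3 were higher and 1 lower (Cnga2, −0.62) in Rb/p53-deleted PBs. For comparison, the whole table had 23.8% of its genes called up and 27.5% called down in Rb/p53-mutated PBs. The shares for Rb/p53-deleted PBs were 25.0% up and 27.7% down. Whether the counts of these 6 genes depart from such shares was not tested. Cnga1, the alpha subunit of rods, differed by 2.01 (limma adjusted p = 0.0627) and 0.55 (limma adjusted p = 0.175) and was not called in either group, nor was Cnga4. Cngb3, the beta subunit of cones, was higher by 3.90 in Rb/p53-mutated PBs and 4.07 in Rb/p53-deleted PBs, and Cngb1, that of rods, by 1.06 and 0.72. Cnga3, the alpha subunit of cones, was called in Rb/p53-deleted PBs only, at 0.45 in Rb/p53-mutated PBs (limma adjusted p = 0.238) and 1.00 in Rb/p53-deleted PBs (limma adjusted p = 1.18e-05).

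The tumors varied among themselves more than the cerebella did. The median SD over the channel genes was 0.195 in Rb/p53-mutated PBs and 0.205 in Rb/p53-deleted PBs, against 0.0827 in cerebellum, and over all genes it was 0.175 and 0.167, against 0.0745. Cacna2d3, an alpha2delta subunit of sensory and brain neurons, varied most in both tumor groups, between 6.25 and 8.51 in Rb/p53-mutated PBs and between 6.75 and 10.1 in Rb/p53-deleted PBs, with PB11 highest.

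The deleted and missense forms of the p53 alteration were compared next. The arrays of the Rb/p53-mutated PBs were deposited on a lower scale, so genotype and array set cannot be told apart in this comparison. Rb/p53-mutated PBs had higher values than Rb/p53-deleted PBs for 19 of the 117 channel genes and lower values for 25, beside 20.7% higher and 25.9% lower among all genes. On the deposited values, on which the median of all genes was −0.86, no channel gene was higher and 110 were lower, and with each array centred on its median 24 were higher and 16 lower. These counts therefore depend on the scaling chosen.

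For the cerebellar channels, the called differences between these groups were smaller than the distances of the same channels from cerebellum. Of the 23 cerebellar channels, 5 were higher in Rb/p53-mutated PBs (Kcnc1 by 0.72, Cacna1a by 0.66, Kcna2 by 0.50, Kcnj6 by 0.39 and Scn2a by 0.36) and 3 were lower (Kcnmb4 by −0.38, Kcnj9 by −0.31 and Hcn2 by −0.31). All 5 that were higher were below 0 on the deposited values (−0.18 to −0.51), and another transcript cluster of Kcna2 differed by −0.58. The Kcnj6 call was lost without Rb/p53-mutated PB2 or PB3, and the Kcnj9 call after median centring (−0.20, limma adjusted p = 0.135) and without PB3, PB4 or PB5. Of the 6 photoreceptor and pineal channels, Cacna2d4 was higher by 0.57 (limma adjusted p = 0.0483), and Kcnv2 and Cacna1d were lower by −0.66 (limma adjusted p = 0.00843) and −0.50. The Cacna2d4 call was lost without Rb/p53-deleted PB11 and without Rb/p53-mutated PB1, PB2, PB4 or PB5. That of Cacna1d was lost after median centring (limma adjusted p = 0.0592), with the replicate number as a block and without Rb/p53-mutated PB1, PB2 or PB5 (limma adjusted p = 0.0620 to 0.101).

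Called channel genes without overlap between the 2 groups numbered 1 that was higher and 6 that were lower in Rb/p53-mutated PBs, beside 7.28% and 8.36% of all genes. Kcnd1, a Shal channel, was the only one of them higher in Rb/p53-mutated PBs, at 7.69 to 7.97 against 6.87 to 7.43 in Rb/p53-deleted PBs (0.62 ± 0.08, limma adjusted p = 9.72e-06), and its sign also turned on the deposited values (−0.26). Those lower in Rb/p53-mutated PBs were Cacna1e, the R-type pore (−0.62), Kcnq3, a subunit of the M current (−0.39), Kcnc4 (−0.38), Kcnj5 (−0.33), Hcn2 (−0.31) and Kcnk10 (−0.29). The Cacna1e call was lost without any 1 of the Rb/p53-mutated PBs.

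On version 2.0 arrays, loss of Rb in addition to Dicer1 and p53 was compared with loss of Dicer1 and p53 alone. No channel gene was called in either direction by limma, and the same held for all genes tested (0% higher and 0% lower). At an unadjusted p below 0.05 there were 16 of 115 channel genes and 1901 of 22180 genes. An exact test of 3 against 3 samples cannot go below p = 0.1. The median difference was −0.15 for 22 cerebellar channels and −0.08 for 6 photoreceptor and pineal channels, beside 0.00 for all genes.

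The values did not overlap between the groups for 4 channel genes that were higher and 13 that were lower in Rb/Dicer1/p53-deleted PBs, beside 7.75% and 6.67% of all genes. The 3 channel genes with the smallest unadjusted p in each direction are given as values. Kcna1 read 5.36, 5.53 and 6.18 in Rb/Dicer1/p53-deleted PBs, against 6.93, 6.99 and 6.55 in Dicer1/p53-deleted PBs. The groups did not overlap, and the difference was −1.13 (limma adjusted p = 0.480). Kcnd2 read 4.66, 4.59 and 4.40, against 6.58, 6.52 and 4.80 in Dicer1/p53-deleted PBs, where the third tumor lay near the Rb/Dicer1/p53-deleted PBs (−1.42, limma adjusted p = 0.491). Kcne1l, an accessory subunit of the Kcne family, read 8.69, 7.11 and 8.52, against 6.79, 6.82 and 7.02 (1.23, limma adjusted p = 0.491). Cacna1b, the N-type pore, read 5.47, 5.50 and 5.37, against 6.09, 6.35 and 6.02 in Dicer1/p53-deleted PBs (−0.71, limma adjusted p = 0.480). None of these passed the threshold. The R-type pore Cacna1e read 5.44, 4.83 and 5.53, against 4.39, 4.63 and 4.45 (0.78, limma adjusted p = 0.480), and the cytoplasmic subunit Kcnab3 read 5.28, 5.25 and 6.0, against 4.73, 5.18 and 4.64 (0.66, limma adjusted p = 0.551).

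Single tumors stood out for other channels. Cacna1s read 9.26, 6.53 and 7.36 in Rb/Dicer1/p53-deleted PBs, against 6.21, 5.63 and 6.76 in Dicer1/p53-deleted PBs. Kcnj6 read 7.91, 5.44 and 5.06, against 4.41, 5.26 and 4.53. In both cases the first Rb/Dicer1/p53-deleted PB was far above the rest, and the groups overlapped. Scn8a read 5.50, 5.62 and 5.82 in Rb/Dicer1/p53-deleted PBs, against 6.86, 7.25 and 4.91 in Dicer1/p53-deleted PBs, with the third Dicer1/p53-deleted PB the lowest of all.

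Rb/p53-deleted PB12 was the single tumor with intact Dicer1 on version 2.0, so its values were set beside the 6 Dicer1-deleted PBs as a description without a test. It lay more than 1 log2 unit above their mean for 6 of 115 channel genes and below it for 6, beside 3.08% above and 3.05% below among all genes. Cacna1f read 7.69 in PB12, against 5.18, 5.78 and 6.01 in Rb/Dicer1/p53-deleted PBs and 5.33, 5.27 and 4.71 in Dicer1/p53-deleted PBs. PB12 was above all 6, by 2.31 over their mean. Kcnj2 read 5.6 in PB12, against 4.13, 4.02 and 4.0 in Rb/Dicer1/p53-deleted PBs and 4.07, 3.89 and 4.28 in Dicer1/p53-deleted PBs, which was also above all 6.

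Cacna1c was likewise highest in PB12, at 9.34 against 8.67, 7.22 and 8.65 in Rb/Dicer1/p53-deleted PBs and 7.70, 6.39 and 7.89 in Dicer1/p53-deleted PBs. Cacna1h went the other way, at 5.40 in PB12 against 7.47, 8.02 and 7.55 in Rb/Dicer1/p53-deleted PBs and 8.24, 6.81 and 7.97 in Dicer1/p53-deleted PBs, which put PB12 −2.28 from their mean. Kcna1 in PB12 was 4.53, below all 6. Cacna2d4 and Kcnv2 did not share the pattern of Cacna1f. Cacna2d4 read 7.08 in PB12, against 5.34, 7.08 and 6.65 in Rb/Dicer1/p53-deleted PBs and 7.39, 7.96 and 6.09 in Dicer1/p53-deleted PBs. Kcnv2 read 6.77, against 6.02, 7.23 and 7.12 in Rb/Dicer1/p53-deleted PBs and 7.34, 7.03 and 7.81 in Dicer1/p53-deleted PBs, so that PB12 was within the range of the 6 for both genes.

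**Figure D5:**
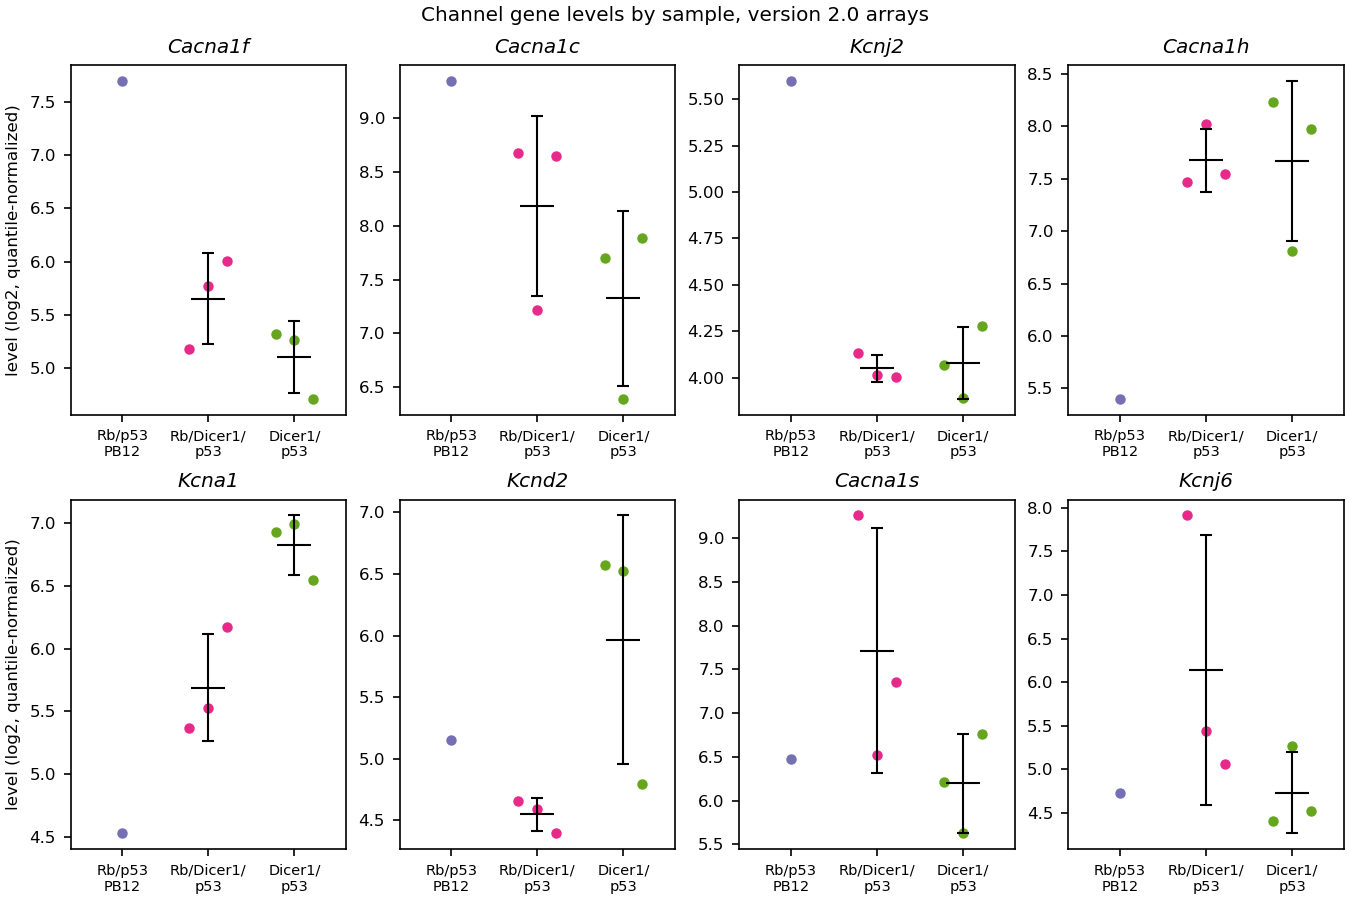
Quantile-normalized log2 signal (y axis) of 8 channel genes in Rb/p53-deleted PB12, Rb/Dicer1/p53-deleted PBs (n = 3) and Dicer1/p53-deleted PBs (n = 3), with 1 point per sample and the mean ± SD as a bar where n = 3, arrays of version 2.0. PB12 is highest for Cacna1f (7.69), Cacna1c (9.34) and Kcnj2 (5.6) and lowest for Cacna1h (5.40) and Kcna1 (4.53).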

How the data were processed

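The authors profiled RNA extracted with Trizol from snap-frozen PBs and normal cerebellum on Affymetrix mouse gene arrays and deposited log2 RMA values from Expression Console, as 1 table per array version. The software version is not given in the sources used here, nor is the set of arrays that each RMA run took in. In R 4.3.3, each table was quantile normalized (the deposited version 1.0 arrays did not share a distribution), clusters annotated to 1 symbol were kept, and the cluster with the highest mean stood for a gene. Groups were compared by moderated linear models in limma 3.58.1, with p-values adjusted by Benjamini and Hochberg's method over every gene of the table, each with its 2 groups only, and calls were made at 0.01 against cerebellum and 0.05 between tumors. The 2 tables were never compared. Members named were the genes of the channel lists, the 8 called genes with the largest difference per direction among those whose groups did not overlap, and, where under 3 passed in a direction, the 3 with the smallest p. Genes named for their spread, as the remaining higher calls, or beside PB12 were chosen after their values were seen. The members and lists were chosen with earlier results of these data known. Replicates are separate tumors or samples by their labels, so p-values measure the spread between these samples, whose number limits the precision. Alternatives were the deposited values, median-centred values, a filter on the dimmest 25% of genes, the mean of all clusters, a replicate block, an array set block and leaving samples out. The scripts were tested on simulated data.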

Additional observations from a re-analysis of the deposited data

Results flagged for a closer look

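For 42 channel genes, the 5 Rb/p53-mutated PBs were searched for a sample far from the others, and 5 genes had one, where chance gives about 1 in 20. The other groups were too large or too small for this search. PB2 was above the rest for Scn1a (5.69, the others 5.06 to 5.21), Kcna1 (8.17, the others 7.14 to 7.32) and Kcnj16 (7.49, the others 6.31 to 6.58). Kcnj6 was low in PB1 (6.19, the others 6.89 to 7.02) and Kcnk1 low in PB5 (7.56, the others 7.76 to 7.81).

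For 5 list members the difference from cerebellum differed by at least 0.5, also after median centring, between the Rb/p53-mutated and the Rb/p53-deleted PBs. Array set and genotype cannot be told apart here. The same cerebella enter both differences, so this equals the direct comparison of these tumor groups and is not a further result. The effect in Rb/p53-mutated PBs minus that in Rb/p53-deleted PBs was 0.66 for Cacna1a (limma adjusted p = 7.40e-04), 0.72 for Kcnc1 (limma adjusted p = 0.00102), 0.57 for Cacna2d4 (limma adjusted p = 0.0483), −0.66 for Kcnv2 (limma adjusted p = 0.00843) and 0.81 for Kcnj10 (limma adjusted p = 0.0108). With each array centred on its median these were 0.69, 0.75, 0.63, −0.59 and 0.85. On the deposited values 4 of them turned, Cacna1a to −0.24, Kcnc1 to −0.18, Cacna2d4 to −0.29 and Kcnj10 to −0.078. The Cacna1a call was lost with the replicate block (limma adjusted p = 0.0580), and that of Cacna2d4 also without single samples.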

How the results depend on the processing

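For Rb/p53-deleted PBs against cerebellum, 17 channel genes were higher after median centring and 5 with the array set (PB11 and cerebellum, or PB1 to PB10) as a block, against 11. For Rb/p53-mutated PBs against cerebellum, 3 were higher and 96 lower as deposited and 24 were higher after centring, against 13 and 59, and 7 to 14 were higher when 1 sample was left out. Between the Rb/p53-mutated and the Rb/p53-deleted PBs, 0 were higher and 110 lower as deposited, 10 were higher without the dimmest 25% of genes, 12 with the replicate block, and 16 were lower after centring, against 19 and 25. Kcnj14 changed sign against cerebellum in Rb/p53-deleted PBs as deposited (0.038), after centring (0.21), when 1 cerebellum was left out (−0.18 to 0.15) and with the array set as a block (0.12), and in Rb/p53-mutated PBs after centring (0.21) and when 1 cerebellum was left out (−0.28 to 0.058). As deposited, Rb/p53-mutated PBs against cerebellum also turned for Kcnd3 (−0.37), Cacna1c (−0.94), Cacna2d1 (−0.20) and Kcnb2 (−0.063), and against Rb/p53-deleted PBs for Cacna1a (−0.24), Cacna2d4 (−0.29), Kcna2 (−0.39), Kcnc1 (−0.18), Kcnj10 (−0.078), Kcnj6 (−0.45), Scn2a (−0.51) and Kcnd1 (−0.26). Kcna2 also turned there with the mean of its clusters (−0.042). The median of all genes was −0.92 and −0.86 in these comparisons as deposited. The cause of the other changes was not tested.

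The labels do not say that replicate numbers mark shared animals or batches, and the deviations of same-numbered samples correlated between −0.20 and 0.29, so samples shared only a number. With the replicate number as a block, 9 channel genes were called higher, with 53 lower, in Rb/p53-deleted PBs against cerebellum, 9 and 54 in Rb/p53-mutated PBs, 12 and 19 between these tumors, and 0 and 0 between Rb/Dicer1/p53-deleted and Dicer1/p53-deleted PBs. Precision is limited by 3 cerebella, by 3 tumors per group on version 2.0 and by PB12 being alone there. No detection call was used, so levels near the array background are not marked.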
